A study of Homo sapiens with 24 samples.

Results

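ZR-75-30 and HCC1500 are human breast carcinoma cell lines that are both labelled estrogen receptor positive (ER+), and they were compared here as cultured at low glucose. A gene entered the comparison if 4 or more of the 8 samples had a normalized read count of 0.5 or above, which left 16805 genes of 18889 in the table. Each line had 4 samples, grown for 48 hours in T25 flasks with 5 mM glucose, the control condition of a study on hyperglycemia. The glucose medium held no serum, so neither line received serum hormones or growth factors while glucose was applied. Neither line carried a transgene or an added agent. Each is a single line from 1 tumor, so that any difference below is one between these lines and not between kinds of tumor. The labels call the 4 samples replicates without saying that they were separate cultures, and p-values then measure the spread between these samples, which may be technical.

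In ER+ tumors the estrogen receptor, encoded by ESR1, acts in luminal mammary epithelium together with FOXA1 and GATA3, and it switches on genes such as PGR, the progesterone receptor. Many breast cancers depend instead, or in addition, on ERBB2 (HER2), a receptor tyrosine kinase whose gene on chromosome 17 is often amplified together with its neighbors. Luminal cells are held together by E-cadherin, the product of CDH1.

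ZR-75-30 samples held 9463981 to 13113305 recovered reads and HCC1500 samples 13190982 to 17998819, without overlap. The detection limit of a sample was set at 3 reads, which equalled a normalized read count of 1.66 to 2.29 in ZR-75-30 and of 0.953 to 1.29 in HCC1500, a limit set by counting error only. The 10 most abundant genes took 10.5% to 10.8% of the reads in ZR-75-30 and 6.03% to 6.42% in HCC1500. Genes with at least 1 read numbered 15376 to 15654 in ZR-75-30 and 16607 to 16798 in HCC1500. Levels are in the deposited unit, normalized read count, with the SD over 4 samples after each mean, and log2 differences are ZR-75-30 minus HCC1500 on the log2(value + 1) scale with their SE. These values are not divided by gene length, so levels are compared between lines and not between genes.

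The first question was how far the lines differed overall. At a Benjamini-Hochberg adjusted p under 0.05 in limma, 14235 genes (84.7% of those tested) differed, with 5753 genes (34.2%) higher in ZR-75-30 and 8482 genes (50.5%) higher in HCC1500. Rescaling every sample to the same total turned this split into 4323 against 10209 genes. The 4 samples of one line all lay above the 4 of the other for 13438 genes (80%). Size was used as well, and 1184 genes (7.05%) were higher in ZR-75-30 and 2429 genes (14.5%) higher in HCC1500 by a log2 difference of at least 2. The median log2 difference was -0.29, with quartiles of -1.26 and 0.60, against a median SE of 0.09. Samples of a line correlated at r = 0.989 to 0.990 in ZR-75-30 and 0.991 to 0.993 in HCC1500, while samples of different lines correlated at 0.788 to 0.793. The median over all genes moved to -0.14 with median-of-ratios scaling and to -0.62 with a fixed total. Medians of gene lists are therefore given relative to the median of all genes tested.

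**Figure D1:**
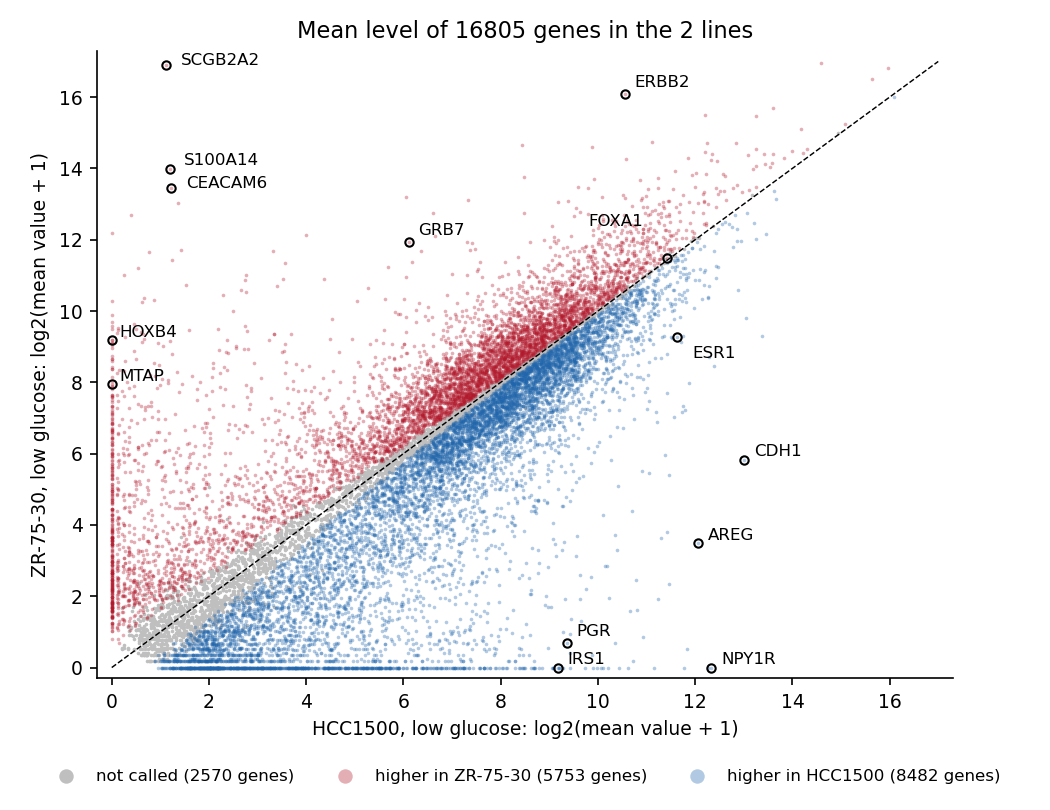
Each point is 1 of the 16805 genes tested, placed by log2(mean value + 1) of 4 samples in HCC1500 (horizontal) and ZR-75-30 (vertical). Red points are the 5753 genes called higher in ZR-75-30, blue points the 8482 called higher in HCC1500 and gray points the 2570 not called, and the dashed line marks equal levels. Genes along the axes, such as HOXB4 and MTAP or NPY1R and IRS1, had almost no reads in one of the lines.

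Luminal identity was checked with 8 markers chosen for it. All 8 were expressed in both lines. Of them 5 were higher in ZR-75-30 and 3 in HCC1500, beside 34.2% and 50.5% of all genes. A fixed total per sample gave 3 and 5. KRT18 and KRT8, the keratin pair of simple epithelium, were higher in ZR-75-30. KRT18 stood at 15720 ± 732 against 3065 ± 194 and KRT8 at 18786 ± 708 against 5623 ± 279. FOXA1, the pioneer factor that opens chromatin for the estrogen receptor, was nearly equal at 2853 ± 70.8 and 2723 ± 63.3, a log2 difference of 0.07 ± 0.03 (limma adjusted p = 0.0339) that turned to -0.29 with a fixed total per sample. GATA3, a luminal transcription factor, was lower in ZR-75-30 at 1931 ± 42.3 against 3571 ± 70.1.

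Markers of other cell types were mostly low, although a few had reads. The summed level of 5 measured basal markers was 15.9 to 19.4 in ZR-75-30 and 28.4 to 36.2 in HCC1500, and that of 2 immune markers did not exceed 6.82 in any sample. Of the 4 basal markers tested only OXTR, the oxytocin receptor, was called, beside 84.7% of all genes. It stood at 3.78 ± 1.69 in ZR-75-30 and 21.8 ± 3.24 in HCC1500. The endothelial list summed to at most 10.7 and the adipocyte list to at most 9.16. Of those tested, 1 of 1 endothelial, 2 of 2 adipocyte and 1 of 2 immune markers were higher in ZR-75-30, beside 34.2% of all genes. In these lists no marker was called higher in HCC1500. Fibroblast markers summed to 101 to 117 in ZR-75-30 and 265 to 295 in HCC1500, most of it COL1A1, a collagen chain, at 105 ± 7.39 and 241 ± 12.2. All 3 fibroblast markers tested were higher in HCC1500, beside 50.5% of all genes. LUM, the proteoglycan lumican, stood at 0.475 ± 0.570 in ZR-75-30 and 29.5 ± 3.54 in HCC1500, and COL3A1, another collagen chain, had no read in ZR-75-30 and stood at 8.91 ± 2.39 in HCC1500. The other 3, COL1A2, PDGFRB and DCN, were too low to be tested, and DCN, the proteoglycan decorin, had no read in either line. The part of such cells in the results was not tested. In such bulk RNA, fewer cells of a type and less RNA per cell cannot be told apart.

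Single genes were described next. The 8 largest differences toward ZR-75-30 were SCGB2A2, S100A14, CEACAM6, SCGB1D2, CLEC3A, S100A16, MUC2 and S100P. SCGB2A2 encodes mammaglobin A, a small secreted protein of the mammary gland. It was read at 122745, 115135, 118637 and 131009 in the 4 ZR-75-30 samples and at 0.76, 1.59, 2.30 and 0 in HCC1500. Every ZR-75-30 sample therefore lay far above every HCC1500 sample, with a log2 difference of 15.92 ± 0.29 (limma adjusted p = 8.88e-13). The gene lies on chromosome 11 at 62037630 to 62040632 (GRCh37). SCGB1D2, a neighboring secretoglobin whose product pairs with mammaglobin A, lies at 62009711 to 62012284 on the same chromosome. Its levels were 6641, 6557, 6524 and 6782 in ZR-75-30 against 0.38, 0, 0 and 0.861 in HCC1500.

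CEACAM6, a glycoprotein of the carcinoembryonic antigen family that is anchored on the surface of epithelial cells, stood at 11177 ± 145 in ZR-75-30 and 1.34 ± 1.68 in HCC1500. CEACAM5, carcinoembryonic antigen itself, followed with 2765 ± 127 and 1.35 ± 0.914. The pair is similar in sequence, and how reads were divided between them is uncertain. S100A14 and S100A16, calcium-binding proteins encoded next to each other on chromosome 1, stood at 16258 ± 433 and 8389 ± 369 in ZR-75-30 against 1.28 ± 0.553 and 1.56 ± 1.32 in HCC1500. S100P, another calcium-binding protein of this family, was read at 2167, 2073, 2001 and 1935 in ZR-75-30 and at 0.38, 0, 0.383 and 0 in HCC1500. CLEC3A, a secreted C-type lectin, had no read in HCC1500 and 4680 ± 60.9 in ZR-75-30, at least 3623-fold higher.

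Mucins, the glycoproteins of mucus, split by member rather than by family. Of 10 tested, 4 were higher in ZR-75-30 and 5 in HCC1500, close to the shares of all genes. MUC2, the gel-forming mucin of the intestine, stood at 3220 ± 233 in ZR-75-30 and 0.710 ± 0.600 in HCC1500. MUC1, a mucin anchored in the membrane, was also higher in ZR-75-30 at 1370 ± 64.6 against 185 ± 20.2. MUC5B, a gel-forming mucin of the airway that neighbors MUC2 on chromosome 11, showed the opposite, with 1.11, 1.14, 0.57 and 1.53 in ZR-75-30 against 1141, 1134, 1013 and 1238 in HCC1500.

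The 8 largest differences toward HCC1500 were NPY1R, ALB, ARHGAP36, GFRA1, IGSF1, SERPINA6, SLC7A2 and SESN3. NPY1R, a receptor of neuropeptide Y and a known estrogen-induced gene, was read at 5172, 5111, 5223 and 5075 in HCC1500 and had no read in any ZR-75-30 sample, at least 2246-fold higher. ALB encodes serum albumin, the main secreted product of hepatocytes. It was also without a read in ZR-75-30 and stood at 4931, 4802, 5000 and 4901 in HCC1500, at least 2143-fold higher. GFRA1, the co-receptor of the glial cell line-derived growth factor, was read at 0, 1.14, 0.57 and 0 in ZR-75-30 and between 3503 and 3687 in HCC1500. ARHGAP36, a modulator of Hedgehog signaling, and IGSF1, an immunoglobulin superfamily membrane protein, are both on the X chromosome. They stood at 3490 ± 93.7 and 2264 ± 33.4 in HCC1500, again without a read in ZR-75-30.

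Several serpins, mostly inhibitors of proteases, belonged to the same side. SERPINA6, the plasma carrier of cortisol, had no read in ZR-75-30 and 1570 ± 68.5 in HCC1500. SERPINA3, α1-antichymotrypsin, stood at 4.09 ± 1.36 and 2834 ± 86.7. SERPINA5, the protein C inhibitor, stood at 1.99 ± 1.95 and 1617 ± 46.2. These 3 genes lie near each other on chromosome 14. Over the list of serpins, proteases and protease inhibitors, 10 of 34 tested were higher in ZR-75-30 and 19 in HCC1500, close to the shares among all genes.

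**Figure D2:**
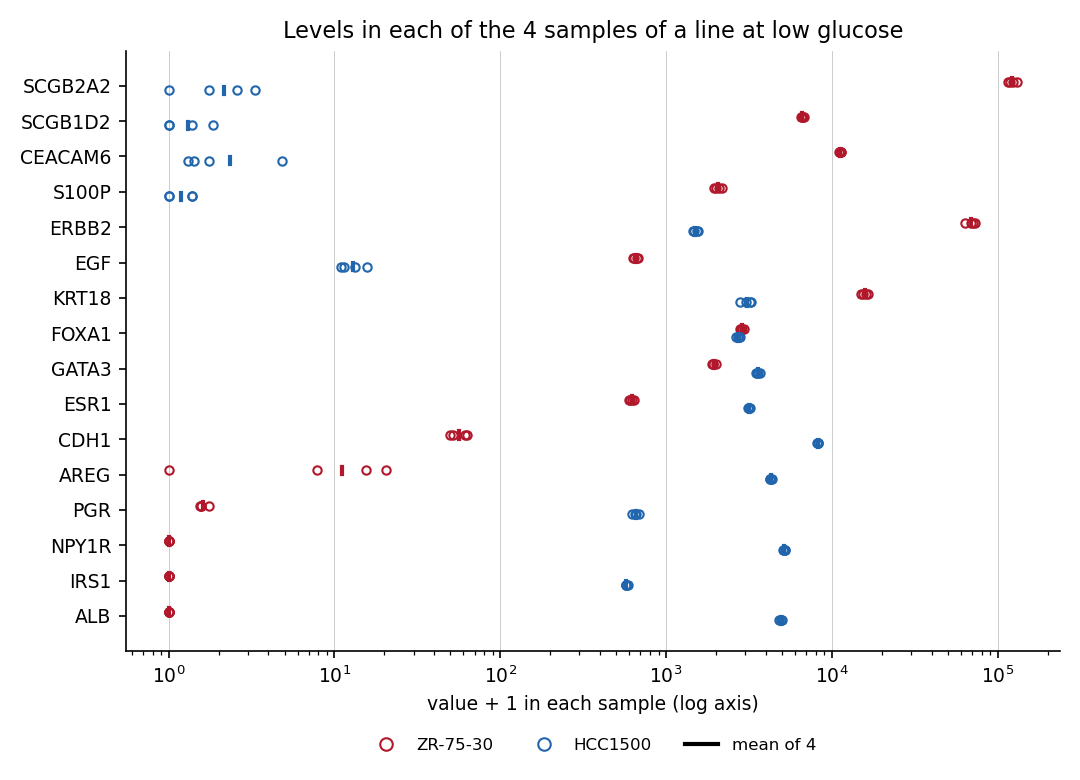
Normalized read count + 1 on a log axis for 16 genes in each of the 4 low glucose samples of ZR-75-30 (red circles) and HCC1500 (blue circles), with short bars at the mean of 4. SCGB2A2, SCGB1D2, CEACAM6 and S100P lay above 1000 in ZR-75-30 and near 0 in HCC1500, while NPY1R, IRS1 and ALB had no read in ZR-75-30, and FOXA1 lay at nearly the same level in both.

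Promoter sequence was set beside these levels, counting CpG dinucleotides around the start of each gene. RefSeq promoters, 250 bases before to 50 after the start, were matched by symbol for 11882 of the 16805 genes tested (GRCh38.p14). A gene was called restricted to a line if its value was at least 10 in all 4 samples of that line and no sample of the other line had more than 3 reads. There were 261 such genes in ZR-75-30 and 603 in HCC1500, of which 188 and 387 had a promoter. The median CpG count per promoter was 20 for genes restricted to ZR-75-30, 21 for those restricted to HCC1500, 27 for genes with a log2 difference under 1 and 26 for all genes tested. Fewer than 10 CpG were found in 29.8%, 22.7%, 9.57% and 14.1% of these promoters. TATAAA, searched on the strand of the gene from 45 to 16 bases before the start, was present in 4.79%, 4.91%, 1.17% and 1.84%, and in 2.63% of the 27305 promoters in the table. These shares describe the letters in this window and were not tested.

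The promoters of 6 restricted or nearly restricted genes are shown to give the range, from a promoter with a single CpG to one with 47. Each is printed 5′ to 3′ on the strand of the gene, with CpG dinucleotides in capitals. SCGB2A2 (chr11:62269908-62270207, plus strand, 6 CpG), SCGB1D2 (chr11:62241989-62242288, plus strand, 1 CpG) and S100P (chr4:6693628-6693927, plus strand, 5 CpG) were the ones high in ZR-75-30. S100P alone among the 6 carried TATAAA in the core window, at position -28 relative to the start.
SCGB2A2: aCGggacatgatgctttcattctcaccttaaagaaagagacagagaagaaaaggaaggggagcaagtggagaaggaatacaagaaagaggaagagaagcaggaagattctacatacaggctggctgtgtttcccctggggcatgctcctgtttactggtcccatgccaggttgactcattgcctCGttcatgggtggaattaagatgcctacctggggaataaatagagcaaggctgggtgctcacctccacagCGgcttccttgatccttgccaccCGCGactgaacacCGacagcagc
SCGB1D2: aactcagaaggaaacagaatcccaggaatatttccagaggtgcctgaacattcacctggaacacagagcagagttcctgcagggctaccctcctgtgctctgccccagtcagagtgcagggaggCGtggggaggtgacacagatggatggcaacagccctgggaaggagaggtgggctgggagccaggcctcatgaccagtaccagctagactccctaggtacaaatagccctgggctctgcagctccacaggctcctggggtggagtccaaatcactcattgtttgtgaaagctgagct
S100P: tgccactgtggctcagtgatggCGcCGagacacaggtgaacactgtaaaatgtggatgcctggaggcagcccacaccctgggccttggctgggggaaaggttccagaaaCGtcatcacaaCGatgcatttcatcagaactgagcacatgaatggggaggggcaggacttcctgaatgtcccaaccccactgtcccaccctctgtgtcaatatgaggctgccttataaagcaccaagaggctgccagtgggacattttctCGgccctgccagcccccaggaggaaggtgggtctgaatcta

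ALB (chr4:73404037-73404336, plus strand, 4 CpG), NPY1R (chr4:163332547-163332846, minus strand, 16 CpG) and IRS1 (chr2:226799771-226800070, minus strand, 47 CpG) were the ones without a read in ZR-75-30. IRS1 had the most CpG of the 6 and yet was absent from ZR-75-30 as completely as ALB, so that a CpG-poor start was not shared by all restricted genes.
ALB: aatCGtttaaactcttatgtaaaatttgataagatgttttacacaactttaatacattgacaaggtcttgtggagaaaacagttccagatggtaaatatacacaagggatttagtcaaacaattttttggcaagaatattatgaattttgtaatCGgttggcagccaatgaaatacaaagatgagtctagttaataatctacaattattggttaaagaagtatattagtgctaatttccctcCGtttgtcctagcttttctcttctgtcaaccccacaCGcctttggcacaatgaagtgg
NPY1R: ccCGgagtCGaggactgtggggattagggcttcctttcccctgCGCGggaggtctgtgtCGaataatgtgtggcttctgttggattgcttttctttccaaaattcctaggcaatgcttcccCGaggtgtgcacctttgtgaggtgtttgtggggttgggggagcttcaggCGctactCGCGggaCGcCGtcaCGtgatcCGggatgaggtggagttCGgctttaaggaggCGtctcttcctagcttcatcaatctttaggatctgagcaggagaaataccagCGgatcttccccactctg
IRS1: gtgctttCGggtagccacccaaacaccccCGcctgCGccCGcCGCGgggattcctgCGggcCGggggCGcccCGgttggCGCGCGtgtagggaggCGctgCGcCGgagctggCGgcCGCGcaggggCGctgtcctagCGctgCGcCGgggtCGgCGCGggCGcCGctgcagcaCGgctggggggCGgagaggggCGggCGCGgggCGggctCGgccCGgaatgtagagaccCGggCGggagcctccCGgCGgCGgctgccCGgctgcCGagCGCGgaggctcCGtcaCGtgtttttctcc

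Both lines are labelled ER+, and the receptor and its targets were then compared. ESR1 was read at 606, 598, 625 and 643 in ZR-75-30 and at 3180, 3133, 3179 and 3221 in HCC1500, 5.14-fold higher in HCC1500 (log2 difference -2.36 ± 0.03, limma adjusted p = 4.62e-14). All 8 samples thus expressed the receptor, and the lines did not overlap. PGR, the progesterone receptor and a classic estrogen target, had 1 read in each ZR-75-30 sample (0.554, 0.569, 0.57 and 0.763) and stood at 624, 650, 657 and 689 in HCC1500.

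Of 36 genes known to be induced by estrogen, 29 were higher in HCC1500 and 6 in ZR-75-30, against 50.5% and 34.2% of all genes. Of the 29, 20 differed by a log2 of at least 2. The list had a median of -1.79 relative to all genes, the lowest of 30 lists with at least 10 tested members. AREG, amphiregulin, a ligand of the EGF receptor, stood at 14.4, 19.3, 0 and 6.87 in ZR-75-30 and at 4342, 4250, 4306 and 4214 in HCC1500. OLFM1, a secreted olfactomedin protein, had no read in ZR-75-30 and 857 ± 21.6 in HCC1500. The members higher in ZR-75-30 included AGR2, CTSD and TFF3. AGR2, a disulfide isomerase of the endoplasmic reticulum, stood at 11108 ± 269 in ZR-75-30 and 2400 ± 65.6 in HCC1500. CTSD, the lysosomal protease cathepsin D, stood at 7668 ± 458 and 1960 ± 101, and TFF3, a trefoil peptide of mucosal surfaces, at 9697 ± 609 and 3453 ± 164.

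Other luminal transcription factors went in both directions. In the list of hormone receptors and luminal factors, 12 of 27 were higher in ZR-75-30 and 13 in HCC1500, beside 34.2% and 50.5% of all genes. TFAP2B, an AP-2 family factor, was read at 704, 710, 711 and 712 in ZR-75-30 and at 0, 0, 0.383 and 0 in HCC1500. SOX9, a factor of mammary progenitors, and TBX3, a T-box factor of mammary development, were also higher in ZR-75-30, by log2 differences of 2.77 ± 0.07 and 1.74 ± 0.03. ZNF703, a luminal corepressor encoded at 8p11, was 21.1-fold higher in HCC1500, at 162 ± 8.48 against 3419 ± 108.

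The ERBB receptors, which signal as pairs, were compared next. ERBB2 was read at 68889, 70873, 72886 and 63593 in ZR-75-30 and at 1446, 1562, 1461 and 1536 in HCC1500. This was a 46.0-fold difference (log2 difference 5.52 ± 0.04, limma adjusted p = 1.91e-15), and the lowest ZR-75-30 sample lay far above the highest HCC1500 sample. ERBB2 lies on chromosome 17 at 37844167 to 37886679 (GRCh37). ERBB3, its preferred partner, was 1.49-fold higher in ZR-75-30 at 3569 ± 73.1 against 2399 ± 38.9. ERBB4 was the other way, at 5.42 ± 2.66 and 196 ± 11.5. EGFR was low in both, at 2.22 ± 0.541 in ZR-75-30 and 0.175 ± 0.204 in HCC1500.

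The ligands of these receptors were divided as well. EGF, the epidermal growth factor, was read at 631, 668, 643 and 676 in ZR-75-30 and at 14.8, 12.4, 10.4 and 9.9 in HCC1500. NRG4, a neuregulin that binds ERBB4, was higher in ZR-75-30 at 38.5 ± 8.85 against 5.84 ± 1.62. HBEGF, the heparin-binding member, was higher in HCC1500 at 2.50 ± 1.71 against 15.96 ± 3.20, as was AREG. Over the 14 tested receptors and ligands, 5 were higher in ZR-75-30 and 9 in HCC1500, beside 34.2% and 50.5% of all genes.

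Genes around ERBB2 at 17q12 to q21 did not all move with it. Of 34 tested, 18 were higher in ZR-75-30 and 12 in HCC1500, beside 34.2% and 50.5% of all genes. A fixed total per sample gave 15 and 15. By a log2 difference of at least 2, 10 were higher in ZR-75-30 and 1 in HCC1500, beside 7.05% and 14.5% of all genes. GRB7, an adaptor protein encoded near ERBB2, stood at 3888 ± 191 in ZR-75-30 and 67.9 ± 2.31 in HCC1500. PPP1R1B, a phosphatase inhibitor also encoded near ERBB2, stood at 1313 ± 62.3 and 0.580 ± 0.516. TNS4, a member of the tensin family, stood at 622 ± 32.3 and 0.203 ± 0.235. RARA, a retinoic acid receptor farther along the arm, was lower in ZR-75-30 at 193 ± 7.82 against 478 ± 19.6.

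Signaling below other growth factor receptors was compared next. FGFR1, a fibroblast growth factor receptor at 8p11, was 20.4-fold higher in HCC1500, at 117 ± 7.82 in ZR-75-30 and 2381 ± 31.3. SPRY4 and DUSP6, which are feedback inhibitors induced by the ERK pathway, were the reverse. SPRY4 was read at 1563, 1552, 1511 and 1487 in ZR-75-30 and at 3.8, 4.13, 8.44 and 4.74 in HCC1500. DUSP6 stood at 1586 ± 34.7 and 37.6 ± 2.96.

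IRS1, the docking protein through which the insulin and IGF receptors signal, was without a read in all 4 ZR-75-30 samples and stood at 571, 571, 585 and 571 in HCC1500, at least 251-fold higher. IRS2, its relative, stood at 1.60 ± 1.32 in ZR-75-30 and 33.2 ± 6.44 in HCC1500. GRB14, an adaptor that binds and restrains the insulin receptor, stood at 1.61 ± 0.963 and 280.5 ± 12.03. PIK3R3, a regulatory subunit of PI3 kinase, was higher in ZR-75-30 at 2571 ± 77.2 against 1284 ± 19.5. Of 18 tested genes of the insulin and IGF axis, 3 were higher in ZR-75-30 and 14 in HCC1500, beside 34.2% and 50.5% of all genes.

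E-cadherin RNA was low in ZR-75-30. CDH1 was read at 60.4, 62.0, 49.0 and 51.2 in ZR-75-30 and at 8263, 8240, 8221 and 8166 in HCC1500, a 148-fold difference (log2 difference -7.19 ± 0.07, limma adjusted p = 8.21e-15). CDH3, P-cadherin, whose gene precedes CDH1 on chromosome 16, was 4.07-fold higher in ZR-75-30. CDH2, the neural cadherin, was read at 0, 0.569, 0 and 0 in ZR-75-30 and at 308, 325, 324 and 288 in HCC1500, so HCC1500 had both E- and N-cadherin RNA. Of 42 junction and polarity genes, 17 were higher in ZR-75-30 and 22 in HCC1500, close to the shares of all genes. CLDN4, a tight junction claudin, was 3.63-fold higher in ZR-75-30.

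Mesenchymal genes were compared next. VIM, the intermediate filament vimentin, stood at 0.756 ± 0.273 in ZR-75-30 and 0.617 ± 0.537 in HCC1500, with at most 4 reads in any sample, and did not pass the test (limma adjusted p = 0.586). Of 28 tested, 7 were higher in ZR-75-30 and 15 in HCC1500, beside 34.2% and 50.5% of all genes. MMP14, a membrane-bound matrix metalloprotease, stood at 0.329 ± 0.390 and 687 ± 31.0, and MSN, the membrane-cytoskeleton linker moesin, at 0.902 ± 1.34 and 688 ± 17.9. S100A4, a calcium-binding protein linked to cell motility, was 104-fold higher in ZR-75-30 at 339 ± 19.98 against 3.24 ± 0.771. CTGF, a matrix protein induced by the Hippo pathway factors YAP and TAZ, had no read in HCC1500 and 75.6 ± 9.63 in ZR-75-30.

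Keratins were higher in ZR-75-30 in 11 of 14 tested and higher in HCC1500 in 2, under every scaling tried, against 34.2% and 50.5% of all genes. Beside KRT8 and KRT18, the largest were KRT4, of stratified mucosa, at 79.2 ± 5.42 against 0.287 ± 0.367, KRT23 at 233 ± 13.7 against 3.65 ± 1.28, and KRT15 at 162 ± 10.9 against 15.7 ± 1.85. KRT19, a simple epithelial keratin, was 1.74-fold higher in ZR-75-30.

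HOX genes, which give cells their position along the body axis, had the highest median of 30 lists with at least 10 tested members, 2.64 above all genes. Of 22 tested, 21 were higher in ZR-75-30 and none in HCC1500, beside 34.2% and 50.5% of all genes. A fixed total per sample gave 18 and 0. HOXB4 was read at 580, 570, 570 and 592 in ZR-75-30 and had no read in HCC1500, at least 447-fold higher. HOXB7 stood at 345 ± 22.6 and was also without a read in HCC1500. HOXC12, of the cluster on chromosome 12, stood at a mean of 729 in ZR-75-30 and 0.0959 ± 0.192 in HCC1500. A further 13 HOX genes in the table had values too low to be tested.

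**Figure D3:**
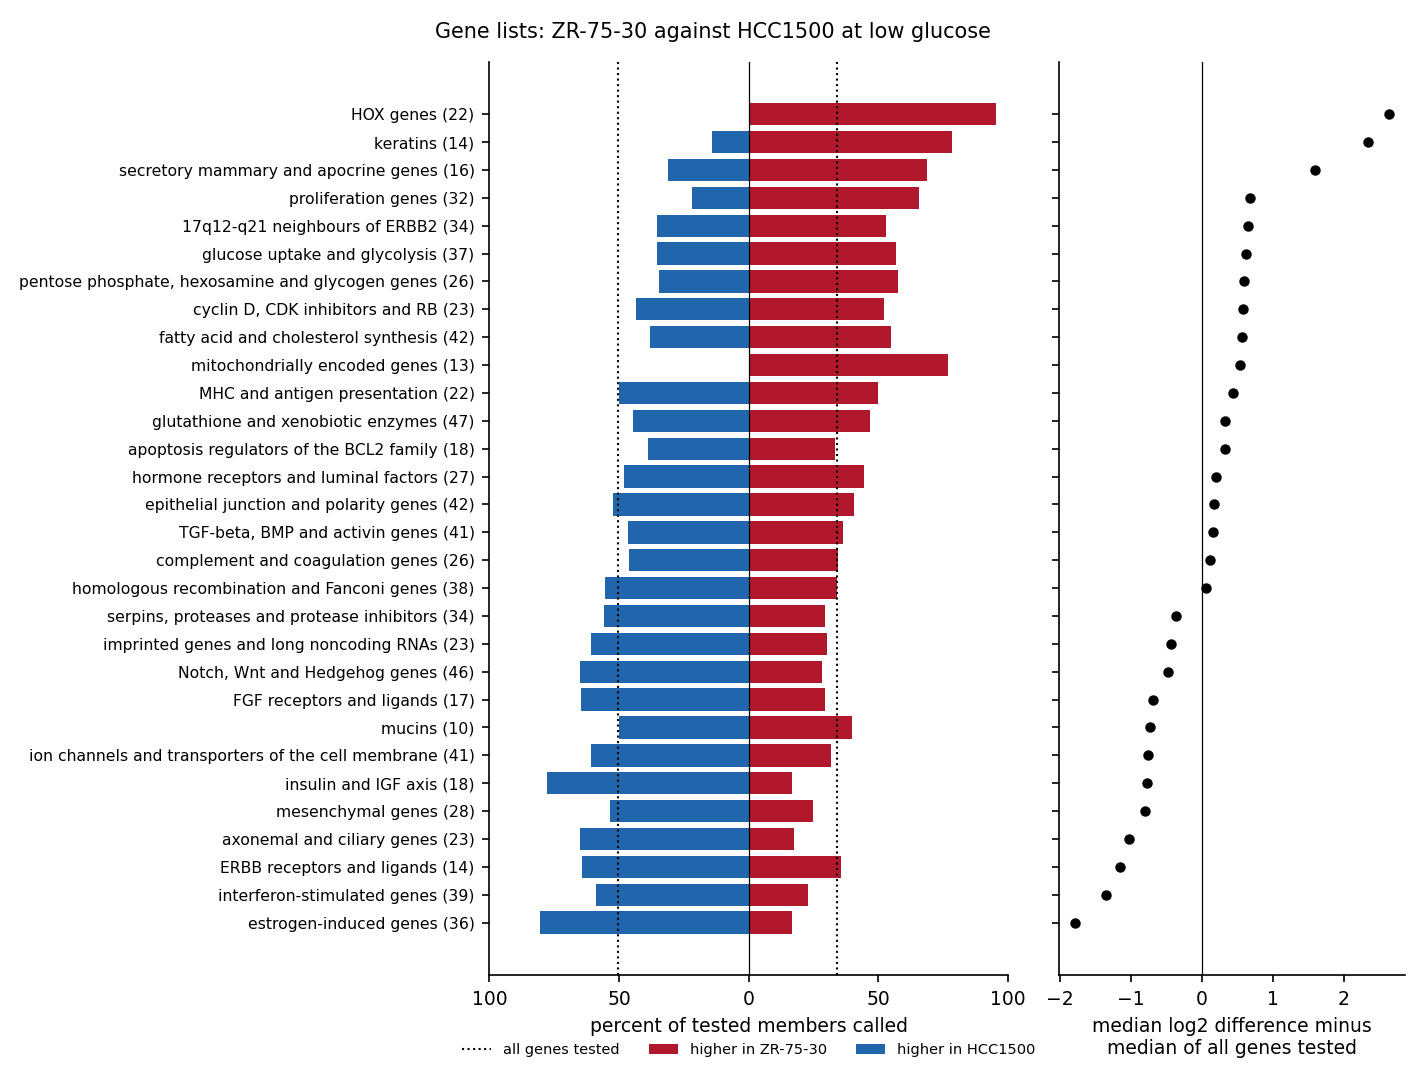
Left, percent of the tested members of each gene list called higher in ZR-75-30 (red, to the right) or in HCC1500 (blue, to the left) at an adjusted p under 0.05 in limma, with the shares over all genes tested as dotted lines at 34.2% and 50.5%. Right, the median log2 difference of the list minus that of all genes. The 30 lists are shown, with the number tested in parentheses. HOX genes and keratins lay farthest toward ZR-75-30 and estrogen-induced genes farthest toward HCC1500.

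The lines also differed in whole stretches of neighboring genes. Genes whose mean reached 10 in either line were ordered along the genome (GRCh37), and runs of at least 3 neighbors were sought in which no sample of one line had more than 3 reads. Of 13261 genes so ordered, 292 (2.20%) were absent from HCC1500 in this sense and 658 (4.96%) from ZR-75-30. There were 9 runs absent from HCC1500, with 34 genes, and 22 absent from ZR-75-30, with 81 genes. The members of these runs were chosen after their values were seen, and no test was made of the runs.

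The run with the most genes lay on the short arm of chromosome 3, from 50355221 to 50541675. It held 8 genes, HYAL2, TUSC2, RASSF1, ZMYND10, NPRL2, CYB561D2, TMEM115 and CACNA2D2. The first 7 had no read in any of the 4 HCC1500 samples, and the 8 together had 1 read. In ZR-75-30 they ranged from 15.1 ± 3.42 for ZMYND10, a cilium assembly factor, to 387 ± 26.5 for HYAL2, a hyaluronidase. RASSF1, a RAS-association domain protein studied as a tumor suppressor, stood at 78.1, 93.3, 94.0 and 76.3 in ZR-75-30, and NPRL2, a subunit of the GATOR1 complex that restrains mTORC1, at 213, 212, 195 and 160. The neighbors on both sides were expressed in HCC1500. HYAL1, before the run, had 30.3 ± 1.52, and HEMK1, after it, had 86.4 ± 6.64. The same 8 genes had 0 reads over the 4 HCC1500 high glucose samples and 76.9 to 313 as means in MDA-MB-175, the third line of the series, at low glucose.

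A further run lay on the short arm of chromosome 9, from 21329664 to 22009304, with KLHL9, MTAP and CDKN2B. MTAP, an enzyme of the methionine salvage pathway, was read at 244, 211, 260 and 268 in ZR-75-30. CDKN2B, an inhibitor of the kinases CDK4 and CDK6, stood at 25.9 ± 3.72 and KLHL9, an adaptor of a ubiquitin ligase, at 499 ± 31.6. None had a read in HCC1500 at low or at high glucose. CDKN2A, which lies between MTAP and CDKN2B and encodes p16 and ARF, was low in ZR-75-30 at 6.13 ± 2.23 and without a read in HCC1500. On either side, PTPLAD2 and TUSC1 stood at 35.9 ± 5.47 and 45.8 ± 6.53 in HCC1500.

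**Figure D4:**
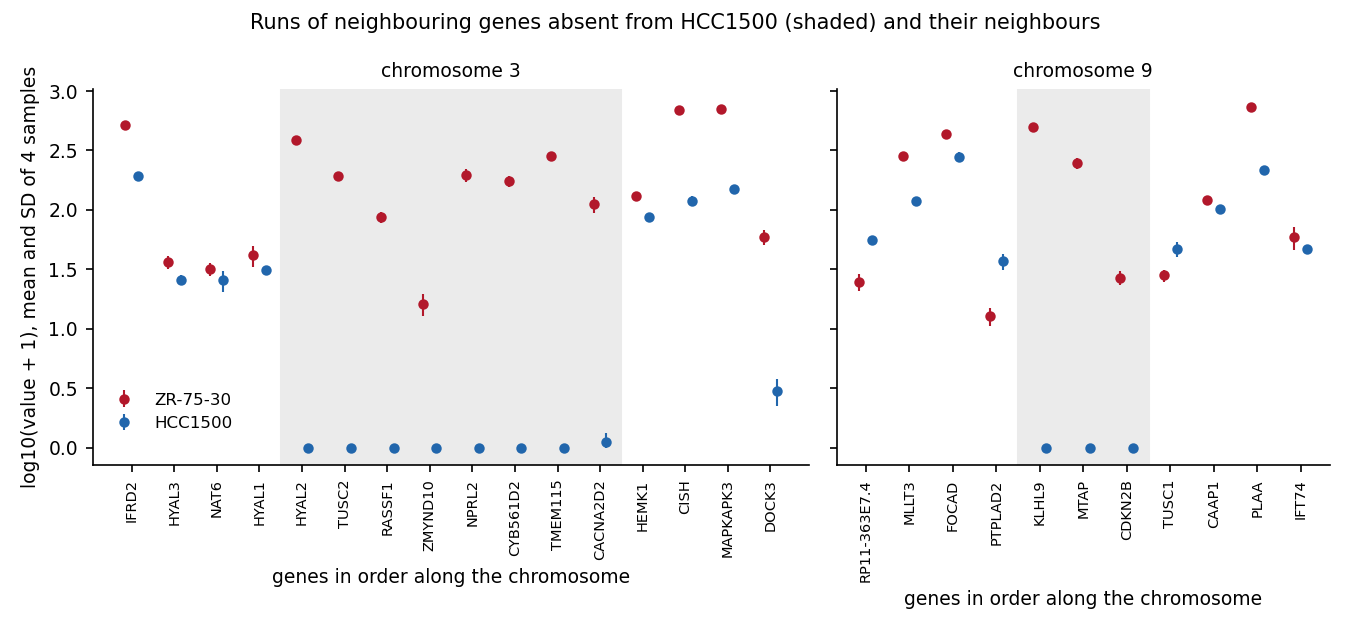
Log10(mean normalized read count + 1) in ZR-75-30 (red) and HCC1500 (blue) for genes in their order along chromosome 3 (left) and chromosome 9 (right), with bars for the SD of 4 samples. Shading marks the runs of 8 and 3 genes in which HCC1500 had almost no reads, and 4 neighbors are shown on each side. In the shaded genes HCC1500 lay at or next to 0, while on both sides it had reads, fewest in DOCK3 with a mean of 2.02.

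Other runs absent from HCC1500 included 5 genes on the X chromosome (BEX4, TCEAL8, BEX2, WBP5 and NGFRAP1), 3 HOXB genes on chromosome 17 and 3 genes on chromosome 22 (GTPBP1, SUN2 and DNAL4). SUN2, a protein of the nuclear envelope, belongs to a run whose means in ZR-75-30 ran from 149.7 to 767. Among the runs absent from ZR-75-30 were 5 genes on chromosome 3 from PLSCR4 to CPB1, 3 aldo-keto reductase genes on chromosome 10 (AKR1E2, AKR1C2 and AKR1C3, a group of similar sequence) and 6 runs of 3 or 4 neighbors on chromosome 19, of which 4 held genes named as zinc fingers (ZNF).

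Broader stretches were described by the median over windows of 25 neighboring genes whose mean over the 8 samples reached 10, relative to the 12656 genes so ordered. Toward ZR-75-30 the window with the highest median lay on chromosome 17 from 45884738 to 47439835 and held the HOXB cluster, with 18 of 25 genes above the median of all and a window median of 2.95. A window on chromosome 17 from 33307531 to 37903544, ending at GRB7, had a median of 1.92. All 25 genes of a window on chromosome 20, from PSMF1 at 1093883 to C20orf27 at 3748428, lay above the median of all. Toward HCC1500, a window of zinc finger genes on chromosome 19 from 21324827 to 29026184 had all 25 genes below the median of all, with a window median of -3.19. A window on chromosome 8 from 33342700 to 40755352, with FGFR1 and ZNF703, had 24 of 25 genes below and a median of -2.23. Over whole chromosomes the medians ran from -1.06 for chromosome 18, where 15.8% of 183 genes lay above the median of all, to 0.782 for chromosome 15, where 75.2% of 408 did. The same chromosomes had -1.11 and 0.863 at high glucose, without the HCC1500 sample described below.

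Cell cycle genes were higher in ZR-75-30 in 21 of 32 tested and in HCC1500 in 7, beside 34.2% and 50.5% of all genes, although a fixed total per sample gave 16 and 13. MKI67, the proliferation antigen Ki-67, was 2.61-fold higher in ZR-75-30 at 1988 ± 110 against 761 ± 29.1. MCM4, a subunit of the replicative helicase, was 4.18-fold higher, CCNE1, cyclin E1, 3.93-fold and BUB1B, a spindle checkpoint kinase, 3.71-fold. MYBL2, a transcription factor of the G2 phase, was 1.72-fold higher in HCC1500. CCND1, cyclin D1, was 2.46-fold higher in HCC1500, at 4575 ± 89.6 in ZR-75-30 and 11246 ± 184, and so was CDKN1A, the CDK inhibitor p21, at 534 ± 19.9 and 1886 ± 37.3.

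Genes of stress response and cell death with large differences fell on both sides. PMAIP1, the BH3-only death protein NOXA, was read at 0, 1.71, 0 and 2.29 in ZR-75-30 and at 639, 619, 610 and 606 in HCC1500. SPATA18, a mediator of mitochondrial quality control, stood at 0.659 ± 0.780 and 134 ± 6.03. PPM1D, a phosphatase of the DNA damage response encoded at 17q23, was 6.47-fold higher in ZR-75-30, and BTG2, an antiproliferative factor, and GDF15, a stress cytokine, were 5.47-fold and 4.09-fold higher. BCL2, the antiapoptotic founder of its family and an estrogen-induced gene, was 23.5-fold higher in HCC1500 at 129 ± 8.13 against 3035 ± 25.0.

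Homologous recombination repairs double-strand breaks from an intact copy. Of 38 tested genes of this and the Fanconi pathway, 13 were higher in ZR-75-30 and 21 in HCC1500, close to the 34.2% and 50.5% of all genes, and the list median lay 0.06 above that of all genes. BRCA1 was 1.41-fold higher in HCC1500 at 199 ± 10.3 against 279 ± 1.81, and BRCA2 higher in ZR-75-30 at 107 ± 3.16 against 71.0 ± 7.79. RBBP8, which encodes the end-resection factor CtIP on chromosome 18, differed most, at 112 ± 12.6 and 782 ± 17.2.

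Genes of glucose metabolism were compared in the same medium. Of 37 tested genes of glucose uptake and glycolysis, 21 were higher in ZR-75-30 and 13 in HCC1500, beside 34.2% and 50.5% of all genes, and 18 and 17 with a fixed total per sample. PFKP, the platelet form of phosphofructokinase, was read at 556, 528, 516 and 526 in ZR-75-30 and had no read in HCC1500, at least 411-fold higher. LDHB, the lactate dehydrogenase subunit favored in aerobic tissue, was without a read in HCC1500 and stood at 41.7 ± 4.32 in ZR-75-30, but at 3955 in MDA-MB-175. PFKFB3, which makes the activator of phosphofructokinase, was 6.22-fold higher in ZR-75-30. SLC16A1 and SLC16A7, the monocarboxylate transporters MCT1 and MCT2, were higher in HCC1500. SLC16A1 stood at 20.1 ± 6.94 and 190 ± 3.89 and SLC16A7 at 0.566 ± 0.806 and 72.8 ± 6.54. ENO2, neuronal enolase, was 8.84-fold higher in HCC1500. SLC2A1, the glucose transporter GLUT1, was 1.22-fold higher in HCC1500. Its log2 difference of -0.29 equalled the median over all genes, and it ran from -0.65 to -0.096 over the alternatives. Relative to all genes it therefore did not differ. TXNIP, a glucose-responsive restrainer of glucose uptake, was 4.15-fold higher in HCC1500 at 615 ± 21.9 against 2556 ± 67.8.

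In the branches of sugar metabolism, UAP1, which makes UDP-N-acetylglucosamine, was 8.86-fold higher in ZR-75-30, and TALDO1, transaldolase of the pentose phosphate pathway, 5.50-fold. PGM1, the phosphoglucomutase that links glycogen to glycolysis, was 7.07-fold higher in HCC1500. These branches had 15 of 26 tested genes higher in ZR-75-30 and 9 in HCC1500, beside 34.2% and 50.5% of all genes. A fixed total per sample gave 12 and 13.

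Lipid genes showed exchanges between members. Of 42 tested, 23 were higher in ZR-75-30 and 16 in HCC1500, beside 34.2% and 50.5% of all genes, or 19 and 21 with a fixed total per sample. ELOVL2, which elongates polyunsaturated fatty acids, had no read in ZR-75-30 and stood at 1057, 1063, 1065 and 1068 in HCC1500, at least 464-fold higher. FADS1, the delta-5 desaturase of the same pathway, was 68.9-fold higher in HCC1500 at 8.85 ± 3.41 against 610 ± 22.0, and ACSL4, which activates arachidonic acid, was 26.5-fold higher. ACSL1, an acyl-CoA synthetase, was 8.82-fold higher in ZR-75-30 at 6436 ± 72.2 against 730 ± 13.5. STARD4, a cholesterol carrier, was 88.5-fold and FDPS, farnesyl diphosphate synthase of the mevalonate pathway, 5.39-fold higher in ZR-75-30.

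Of 47 tested detoxifying enzymes, 22 were higher in ZR-75-30 and 21 in HCC1500, beside 34.2% and 50.5% of all genes. By a log2 difference of at least 2, 10 were higher in ZR-75-30 and 16 in HCC1500, beside 7.05% and 14.5% of all genes. GSTT1, a glutathione transferase, had no read in ZR-75-30 and stood at 334 ± 22.9 in HCC1500. CYP4B1, a cytochrome P450, stood at 8.82 ± 1.37 and 1344 ± 35.7. ALDH1A3, a retinaldehyde dehydrogenase, stood at 215 ± 21.3 and 0.159 ± 0.318. Of the metallothioneins and their regulators, 3 of 6 were higher in each line, beside 34.2% of all genes in ZR-75-30 and 50.5% in HCC1500. MT2A was 9.25-fold higher in ZR-75-30.

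Interferon-stimulated genes were higher in HCC1500 in 23 of 39 tested and in ZR-75-30 in 9, beside 50.5% and 34.2% of all genes. By a log2 difference of at least 2, 16 were higher in HCC1500 and 2 in ZR-75-30, beside 14.5% and 7.05% of all genes. BST2, the membrane tether tetherin, was read at 7.2, 2.27, 4.56 and 3.82 in ZR-75-30 and at 1691, 1837, 1714 and 1789 in HCC1500. SAMD9, an antiviral factor, was 36.0-fold and IFI6, a mitochondrial survival factor, 23.7-fold higher in HCC1500. EPSTI1 was among the exceptions, at 9.94 ± 3.08 in ZR-75-30 and 0.108 ± 0.215 in HCC1500. Of 22 antigen presentation genes, 11 were higher in each line, beside the same 34.2% and 50.5%. HLA-DMA, of the class II loading complex, stood at 48.6 ± 4.17 and 1.03 ± 0.143, and MICB, a stress ligand of natural killer cells, was 5.30-fold higher in HCC1500.

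Of 46 genes of the developmental Notch, Wnt and Hedgehog pathways, 13 were higher in ZR-75-30 and 30 in HCC1500, beside 34.2% and 50.5% of all genes. LEF1, a nuclear effector of Wnt signaling, stood at 0.329 ± 0.390 in ZR-75-30 and 235 ± 9.52 in HCC1500, and FZD6, a Frizzled receptor, at 267 ± 10.03 and 1.21 ± 0.632. TGFB1, the transforming growth factor itself, was 80.1-fold higher in HCC1500 at 4.75 ± 3.17 against 380 ± 14.8. Of 41 membrane channels and transporters, 13 were higher in ZR-75-30 and 25 in HCC1500, beside the same shares of all genes. SCNN1A, a subunit of the epithelial sodium channel, was 30.2-fold higher in ZR-75-30 and KCNK1, a potassium channel, had no read in HCC1500 and 225 ± 17.4 in ZR-75-30. SLC7A2, a carrier of cationic amino acids, stood at 1694 ± 12.7 in HCC1500 and had 1 read in ZR-75-30.

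Germline and imprinted genes were exclusive to one line in some cases. TDRD1, a tudor protein of the germline piRNA pathway, was read at 717, 754, 720 and 705 in ZR-75-30 and had no read in HCC1500. PRAME, a cancer-testis antigen, was 5.43-fold higher in HCC1500. PEG3, an imprinted zinc finger gene on chromosome 19, had no read in ZR-75-30 and stood at 613 ± 11.5 in HCC1500. SNURF, an imprinted gene on chromosome 15, stood at 368 ± 14.8 in ZR-75-30 and 0.836 ± 1.22 in HCC1500, with the reservation that it shares exons with SNRPN.

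Mitochondrially encoded genes were higher in ZR-75-30 in 10 of 13 tested and in HCC1500 in none, beside 34.2% and 50.5% of all genes. Median-of-ratios scaling and edgeR each gave 13 and 0, while a fixed total per sample gave 5 and 5. Their direction thus depended on the scaling, with the fixed total alone balancing the lines. MT-CO1, a subunit of cytochrome oxidase, stood at 114411 ± 3817 and 63982 ± 2527.

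The genes restricted to one line were mostly protein coding, 229 of 261 in ZR-75-30 and 460 of 603 in HCC1500. Long noncoding RNAs made up 17 and 69 and pseudogenes 7 and 48. The mean in MDA-MB-175 reached 10 for 194 of the genes restricted to ZR-75-30 and for 217 of those restricted to HCC1500. Among the highest were PLS3, an actin-bundling plastin, with 1240 ± 25.5 and no read in HCC1500, and RASD1, a RAS-related protein induced by dexamethasone, with 1213 ± 23.6 and 0.536 ± 0.417. SESN3, a sestrin that restrains mTORC1, and TMEM64, a membrane protein, were restricted to HCC1500, at 1376 ± 30.8 and 1949 ± 37.1. The limit of 3 reads does not show absence, since it allows normalized read counts of up to 2.29 in ZR-75-30 and 1.29 in HCC1500.

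The same lines were also sequenced after 48 hours at 25 mM glucose, in samples that the comparison above did not use. One of the 4 HCC1500 high glucose samples, replicate 3, correlated at r = 0.955 to 0.957 with the other 3, which correlated at 0.989 to 0.990 among themselves. Values are given with and without it. Of the 14235 genes called at low glucose, 10473 were called in the same direction at high glucose and 191 in the opposite one, against 11893 and 495 without replicate 3. The background at high glucose was 69% of genes called, with 29.1% higher in ZR-75-30 and 39.9% in HCC1500, or 81.1%, 36.4% and 44.7% without replicate 3. Of the 3613 genes with a log2 difference of at least 2, 3462 were called in the same direction and 1 in the opposite one (3516 and 1 without replicate 3). Of the 864 restricted genes, 857 were called in the same direction and 0 in the opposite one (862 and 0). ERBB2 had a log2 difference of 5.75 at high glucose without replicate 3, CDH1 one of -6.88 and ESR1 one of -2.77.

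The single gene of the 3613 called in the opposite direction was DIO2, a deiodinase that activates thyroid hormone, with a log2 difference of 3.18 at low glucose and -1.14 at high glucose without replicate 3. At low glucose it was read at 17.2, 19.9, 34.2 and 23.7 in ZR-75-30 and at 1.52, 1.91, 1.92 and 1.29 in HCC1500. TFF1, a trefoil peptide and a classic estrogen target, was reversed at a higher level. It was read at 1858, 1785, 1830 and 1739 in ZR-75-30 and at 715, 726, 751 and 715 in HCC1500 at low glucose. At high glucose it was read at 382, 390, 390 and 404 in ZR-75-30 and at 681, 620, 1951 and 644 in HCC1500. The lines did not overlap in either condition, and their order was opposite. DIO2 and TFF1 were chosen after their values were seen, and the difference between the conditions was not tested.

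**Figure D5:**
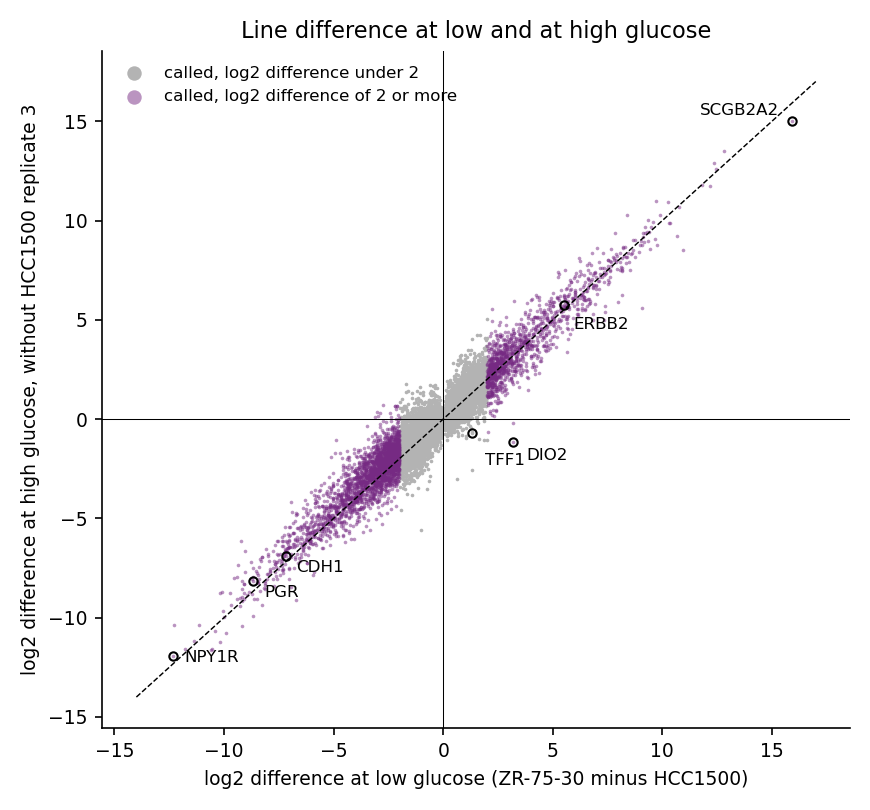
Log2 difference between the lines (ZR-75-30 minus HCC1500) at low glucose (horizontal) and at high glucose without HCC1500 replicate 3 (vertical), for genes called at low glucose. Purple points are the genes with a log2 difference of at least 2 at low glucose, gray points the other called genes, and the dashed line marks equal differences. Nearly all purple points kept their side of 0, with DIO2 as the labelled exception, and TFF1 was reversed among the smaller differences.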

How the data were processed

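RNA of ZR-75-30 and HCC1500 cells was sequenced in bulk. The authors deposited 1 table of normalized values per gene (unit signal, gene counts divided by a factor per sample). The paper names TopHat, hg19 and Ensembl annotation, while the submitters' processing notes list hg38 and edgeR, so the build is uncertain, and gene coordinates here are those of GENCODE on GRCh37, matched by gene ID for 18183 of 18889 genes. Within each sample 100% of deposited values were whole multiples of the value of 1 read (tolerance 0.02), and whole reads were recovered from them. In 9 lines a symbol was split over cells, and values were therefore counted back from its last cell. Depth and the value of 3 reads are given with the results.

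The main test was limma 3.58.1 (R 4.3.3) with a trended variance prior, applied to log2(value + 1) of the 8 low glucose samples for genes that reached 0.5 in 4 or more samples, with Benjamini-Hochberg adjustment, and it was tested on simulated data. A fold is a ratio of means, and on the log2(value + 1) scale changes of low genes are understated. edgeR 4.0.16 and DESeq2 1.42.0 on the recovered reads were alternatives, with other pseudocounts, filters, scalings, thresholds, a replicate block, leaving out each sample and a trend with gene length and GC content (mgcv 1.9.3). Named genes were the 8 with the largest differences per direction, over all called genes without overlap, over those with a mean of at least 500 and over restricted genes by mean, the 3 largest per direction in each of 40 gene lists, and 21 fixed genes. Genes outside this rule are said to be chosen after their values were seen, as are the neighbors of runs and window ends. The genes compared and the gene lists were chosen with earlier results of these data known. Some genes and a gene list are not reported here.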

Additional observations from a re-analysis of the deposited data

Results flagged for a closer look

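Of the genes described, 142 were checked for samples that stood apart. In 17 of their 227 groups of 4 samples, 1 sample stood apart from the other 3 by more than Dixon's critical value for 4 samples. Chance alone gives about 1 in 20 groups. In ZR-75-30, replicate 4 stood apart for 6 genes. It was lower in S100A16 (7840 against 8513 to 8618), TFF3 (8785 against 9949 to 10043), CLDN4 (4125 against 4505 to 4550), ALDH1A3 (183 against 222 to 229.7) and MT2A (1305 against 1481 to 1515), and higher in GRB14 (3.05 against 1.11 to 1.14). This was the shallowest of the 8 samples, with 9463981 reads. Replicate 1 of ZR-75-30 stood apart in TXNIP (648 against 603 to 606) and SAMD9 (2.77 against 4.55 to 4.58), and replicate 3 in ACSL1 (6544 against 6386 to 6411).

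In HCC1500, replicate 3 stood apart in CEACAM6 (3.83 against 0.318 to 0.760), TMEM64 (1894 against 1963 to 1976), AGR2 (2498 against 2357 to 2377), IRS1 (585 against 571 to 571) and BCL2 (2998 against 3043 to 3051). Replicate 2 stood apart in NRG4 (8.26 against 4.94 to 5.17) and SLC16A1 (184 against 191 to 192), and replicate 1 in FDPS (1030 against 1119 to 1125). None of these samples overlapped with the other line.

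The difference between the lines in FOXA1 (log2 0.067 at low glucose) and TFF1 (1.31 at low glucose) had the opposite sign at high glucose. DIO2, which was not among the genes checked here, also changed sign, from 3.18 to -1.14 without HCC1500 replicate 3. The difference between the conditions was not tested.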

How the results depend on the processing

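Of the genes described, 142 were carried through 22 alternatives, while others, such as DIO2, OXTR, COL1A1, LUM and COL3A1, were not. The direction and call of 140 of the 142 held. The exceptions were FOXA1 and VIM. FOXA1 turned to -0.29 with a fixed total per sample and lost its call under 7 alternatives, among them the replicate block (limma adjusted p = 0.082) and leaving out replicate 3 or 4 of either line. VIM, which was never called, turned to -0.26 in edgeR on thinned reads and to -0.040 without HCC1500 replicate 1, with a range of -0.040 to 0.35 when 1 sample was left out. The median of the TGF-beta list turned to -0.091 with a pseudocount of 0.1 and to -0.094 without ZR-75-30 replicate 3 (range when 1 sample was left out -0.094 to 0.26), and that of the complement list to -0.034 without ZR-75-30 replicate 3 (range -0.034 to 0.22). The count of 14235 called genes was 13978 to 14305 when 1 sample was left out, with a filter over 3 samples added after seeing the data. It was 7940 or 3613 with a log2 difference of at least 1 or 2, the latter threshold added after seeing the data. Restricted genes numbered 885 to 908 when 1 sample was left out, which by their definition can only keep or raise the count. They numbered 444 (133 in ZR-75-30 and 311 in HCC1500) when no read was allowed in the other line, which can only keep or lower it. The high glucose count of 11618 was 10874 to 13839 when 1 sample was left out, again with the filter over 3 samples. Calls higher in ZR-75-30 and in HCC1500 numbered 6490 and 7701 with median-of-ratios scaling. Samples with the same replicate number did not deviate together (mean r = -0.016, against 0.005 for different numbers), so no pairing by number was seen. The replicate block gave 14184 calls at low and 11476 at high glucose. Depth limits statements on absence to 3 reads per sample.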
